A study of Mus musculus with 3 samples.

Results

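The complement genes described here are 9 genes selected by symbol: the C1q chain genes C1qa, C1qb and C1qc, the component genes C3, Cfb and Cfp, the receptor genes C3ar1 and C5ar1, and the regulator gene Cd55. They are 9 of 55536 annotated genes, and all 9 had counts in every library. RNA came from the cytosolic fraction of bone-marrow-derived macrophages (BMDM), primary cells grown from marrow of C57BL/6J mice, stimulated with Lipid A at 100 ng/ml for 30 min, a bacterial lipid sensed through the receptor TLR4. The series holds 1 group of 3 libraries, replicates 1, 2 and 3, of total RNA depleted of ribosomal RNA. All 3 were stimulated, so a level here is a level at this time in this fraction, and no gene can be called induced. They are labelled as biological replicates but share a donor record, so p-values and SDs describe the spread among these 3 samples, some of which may be technical. Age and sex of the mice are not given in the labels.

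Complement is a cascade of blood and tissue proteins that tags microbes and dying cells for uptake. C1q opens the classical pathway by binding antibody or damaged surfaces, factor B and properdin drive the alternative pathway, and both routes converge on cleavage of C3. The released fragments C3a and C5a act on receptors of myeloid cells, while CD55 on the cell surface breaks up the enzymes that cleave C3. The liver makes most plasma complement, but macrophages are the main source of C1q.

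Levels between genes are given in TPM, a share of all transcripts that is corrected for transcript length. Libraries are compared in CPM, the share of expected counts after TMM scaling, which centres the bulk of genes. This second scale is needed because nuclear protein-coding genes held 22.3%, 34.4% and 24.3% of the TPM in replicates 1, 2 and 3. Relative to CPM, the median gene tested moved on the log2 scale by -0.25, 0.35 and -0.10 in those libraries when TPM was used instead. Genes received 23403511, 50435192 and 35785886 rounded counts, so replicate 2 has the smallest counting error. All 10 macrophage marker genes reached 10 TPM or more, with a summed level of 17151, 14635 and 15730 CPM. Markers of other cells were lower: T and NK cell genes summed to 0.089, 0.239 and 0.174 CPM, and 5 of 6 hepatocyte genes, albumin among them, had 0 counts in every library. Stromal markers stood apart in 1 library, at 332, 2.35 and 2.67 CPM. Neutrophil markers summed to 112, 106 and 122 CPM. Of the 7 neutrophil markers tested between libraries, 5 were lowest in replicate 1, 1 in replicate 2 and 1 in replicate 3. Their median log2 deviation from the gene's own mean was -0.74 in replicate 1, which the sum does not show. B cell markers summed to 13.6, 15.5 and 10.9 CPM, dendritic cell markers to 5.50, 4.41 and 6.07, and endothelial markers to 111, 94.5 and 92.3. In bulk RNA, fewer cells of a type and less RNA per cell cannot be told apart.

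Promoter sequence, taken here as sequence before a RefSeq start, is shown for the 2 abundant C1q genes, both anaphylatoxin receptors and C3. These are the 5 genes with a match to a motif marked below. Cfp and Cd55 had windows without such a match, and their sequences are not shown. RefSeq windows on GRCm38.p6, the build also called mm10, were found for 7 of the 9 genes, not for C1qa or Cfb. All 5 genes lie on the minus strand, and the sequences read 5′ to 3′ along the gene. Each covers up to 250 bases before the RefSeq start, without bases that GENCODE M21 places in an exon of the gene. Capitals mark matches, on either strand, to AGGAAGT (the core of the consensus of PU.1, the master factor of macrophages), to TGANTCA (AP-1) or to TTGCNNAA (C/EBP), all chosen after the matches were seen. The stretches span chr4:136886201-136886450 for C1qb, chr4:136893066-136893164 for C1qc, chr7:16259339-16259512 for C5ar1, chr6:122856162-122856407 for C3ar1 and chr17:57228137-57228386 for C3.
C1qb: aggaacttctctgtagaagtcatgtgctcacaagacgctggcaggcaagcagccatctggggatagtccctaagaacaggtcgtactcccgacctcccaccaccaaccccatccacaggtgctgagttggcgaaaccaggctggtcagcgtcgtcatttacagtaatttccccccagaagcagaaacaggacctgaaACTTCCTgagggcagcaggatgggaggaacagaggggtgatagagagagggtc
C1qc: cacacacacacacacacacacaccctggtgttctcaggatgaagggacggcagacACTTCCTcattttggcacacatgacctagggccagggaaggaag
C5ar1: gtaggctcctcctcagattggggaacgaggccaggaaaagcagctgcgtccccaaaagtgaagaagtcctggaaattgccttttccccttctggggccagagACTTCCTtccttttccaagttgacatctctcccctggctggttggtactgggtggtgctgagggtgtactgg
C3ar1: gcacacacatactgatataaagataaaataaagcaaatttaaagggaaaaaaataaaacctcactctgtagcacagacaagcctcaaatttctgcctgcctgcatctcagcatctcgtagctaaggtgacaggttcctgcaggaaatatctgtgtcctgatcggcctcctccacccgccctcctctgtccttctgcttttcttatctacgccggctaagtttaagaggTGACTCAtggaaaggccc
C3: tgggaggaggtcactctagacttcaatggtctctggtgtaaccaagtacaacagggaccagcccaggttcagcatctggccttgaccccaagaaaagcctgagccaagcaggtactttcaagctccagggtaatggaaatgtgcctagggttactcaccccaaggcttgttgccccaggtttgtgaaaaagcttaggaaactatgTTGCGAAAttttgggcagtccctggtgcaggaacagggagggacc

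C1qb, C1qc and C5ar1 were the 3 of 7 genes with AGGAAGT, which 7.69% of 32851 windows of the same length hold. The first base of the match lay 53 bases before the RefSeq start in C1qb and 195 before it in C1qc. In C1qc the 151 bases next to that start lie in a GENCODE M21 exon, so these distances depend on the start used. In C5ar1 it lay 72 bases before the start, and another match, 190 bases before it, falls in an exon and is not printed. The printed C5ar1 stretch lies just before the annotated transcript C5ar1-202. In the transcripts C5ar1-201 and C5ar1-203, which start further upstream, it falls in the intron between exons 1 and 2. It is therefore promoter sequence only for the start used here. C3ar1 had TGANTCA 22 bases before its start (6.75% of windows), and C3 had TTGCNNAA 45 bases before its start (9.56%). The consensus of NF-kB was found in none of the 7 and in 0.356% of windows. Of the other motifs searched, GAGGAA was found in C1qb and C1qc, where it overlaps AGGAAGT in C1qc (23.25% of windows), TATAAA in C3ar1 (12.37%), and the interferon-stimulated response element in none (2.98%). These are matches of letters, with no measurement of binding.

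The 9 levels spanned more than 3 orders of magnitude and kept nearly the same order in every library. C1qb was highest, followed by C1qc, Cfp, C3ar1, C5ar1, C1qa, C3, Cfb and Cd55. In mean TPM, 7 of 9 genes reached 1 TPM, 6 reached 10 TPM and 5 reached 100 TPM. Of nuclear protein-coding genes (all annotated genes in parentheses), 42.7% (18.1%) reached 1 TPM and 18.0% (7.45%) reached 10 TPM. The level of 100 TPM was reached by 421 of 22015 (480 of 55536). Of the 8 pairs of neighbours in this order, 7 had the same order in 3 of 3 libraries and ranges that did not overlap. The exception was Cfp and C3ar1, whose ranges overlapped and of which Cfp was higher in 2 of 3 libraries. The order was not tested, because flipping signs exactly over 3 libraries gives a two-sided p of 0.25 at best.

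**Figure D1:**
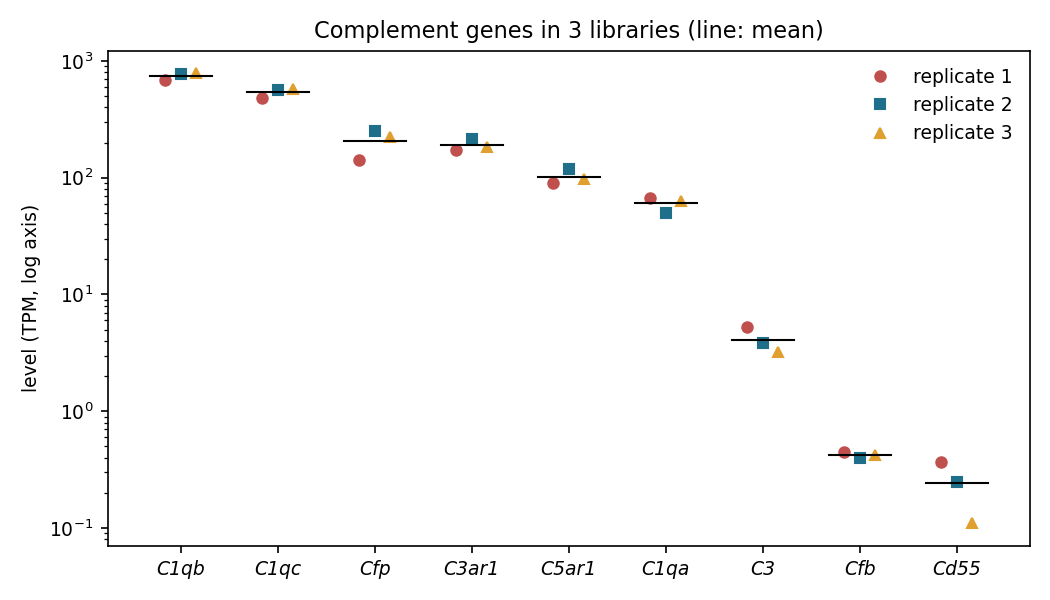
Level of each of the 9 genes in TPM (log axis), 1 symbol per library, with the mean of 3 libraries as a line. C1qb has the highest mean, 746 TPM, and Cd55 the lowest, 0.243 TPM; the symbols of Cfp and C3ar1 overlap.

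All 9 genes varied between libraries by more than counting error, but so did most genes measured this deeply. The chi-square test of rounded expected counts against Poisson sampling (adjusted p under 0.05, Benjamini-Hochberg over all genes tested) called 9 of 9 members, against 66.8% of 13237 genes tested. Of the 5163 genes that averaged at least 1000 counts, 86.0% were called. A call by this test is therefore not particular to complement genes, and the size of the differences is the more informative measure. Expressed as edgeR's biological coefficient of variation (BCV), the members ranged from 13.3% for C3ar1 to 46.3% for Cd55. The BCV estimates the relative spread between libraries beyond counting. edgeR pulls each gene's value toward those of genes with similar counts. At low counts it therefore says little of the gene itself: C2, with 14, 23 and 18 counts and not called, had 43.7%. Cfb and Cd55 also have low counts. The median gene tested, over all depths, had 17.3%.

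In CPM, replicate 2 was the lowest library for 7 of 9 members, and 37.6% of all genes tested were lowest there. It was also lowest for 8 of 10 macrophage markers and for 11 of 15 other complement genes tested. Replicate 1 was the highest library for 6 of 9, and for 29.8% of all genes tested. In TPM the highest library changed for 3 members: Cfp, C3ar1 and C5ar1 were highest in replicate 2 by TPM, whereas by CPM Cfp was highest in replicate 3 and both receptors in replicate 1. When TPM was rescaled to nuclear protein-coding genes, the highest library was that given by CPM for all 9.

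**Figure D2:**
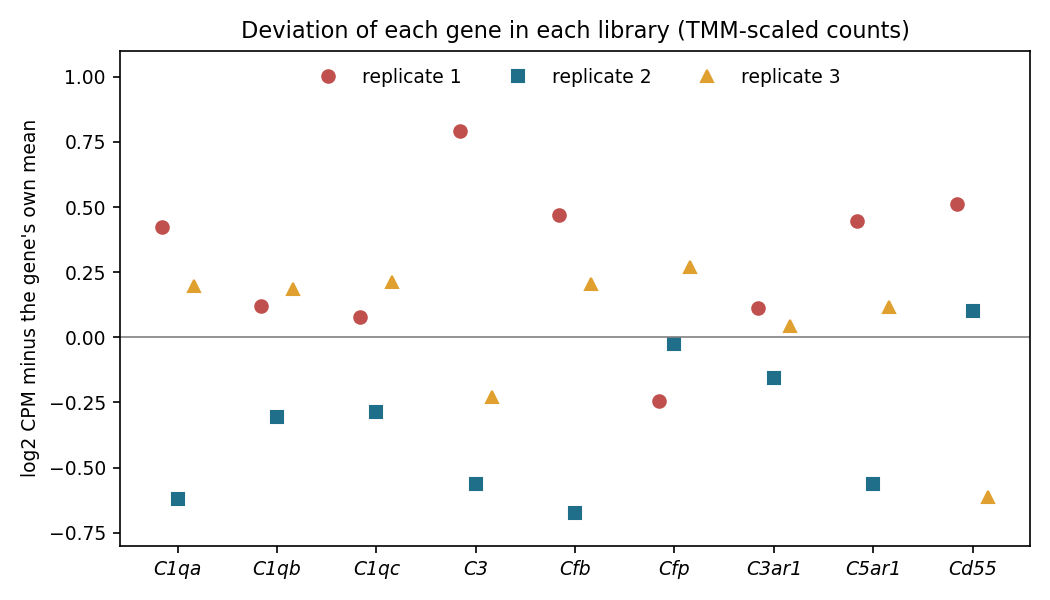
Deviation of each gene from its own mean over the 3 libraries, in log2 CPM of TMM-scaled counts, 1 symbol per library. C3 in replicate 1 lies highest, at 0.79; C1qa, C5ar1 and Cfb are lowest in replicate 2, at -0.62, -0.56 and -0.68, without correction for the changing effective length of C5ar1; C3ar1 stays within 0.16 of its mean.

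The C1q chain genes, whose products assemble into 1 protein, differed in level by about an order of magnitude. C1qb (ENSMUSG00000036905.8, chromosome 4, 136880129 to 136886187, minus strand) had 682, 774 and 784 TPM in replicates 1, 2 and 3, or 746 ± 56.1 (SD, n = 3). It ranked 27 among 22015 nuclear protein-coding genes by mean TPM. C1qc (ENSMUSG00000036896.5, chromosome 4, 136889804 to 136893065) had 478, 565 and 578 TPM, or 540 ± 54.0, and ranked 51. C1qa (ENSMUSG00000036887.5, chromosome 4, 136895917 to 136898803) had 67.5, 49.9 and 63.4 TPM, or 60.3 ± 9.20, and ranked 676. Every library of C1qa lay far below every library of the other chains. The 3 genes lie side by side in 18675 bases, with 3616 bases between C1qb and C1qc and 2851 between C1qc and C1qa.

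Within a library, C1qb exceeded C1qc by nearly the same factor each time, whereas the distance of both from C1qa varied. The log2 ratio of C1qb to C1qc in TPM was 0.51, 0.45 and 0.44 in replicates 1, 2 and 3, a mean of 0.47 ± 0.04 or 1.38-fold. C1qb over C1qa was 3.34, 3.95 and 3.63, a mean of 3.64 ± 0.31 or 12.5-fold, and was largest in replicate 2. C1qc over C1qa was 2.82, 3.50 and 3.19, a mean of 3.17 ± 0.34 or 9.00-fold, again largest in replicate 2. The second transcript table, made by the authors from the reads with another estimator, gave means of 0.45, 3.62 and 3.17 for the same ratios. C1qa and C1qb have 1 annotated transcript each, and C1qc-201 held 99.8%, 99.9% and 99.7% of C1qc TPM, so isoform assignment hardly enters these ratios. The deposited posterior SD of the gene count was 0 for all 3 genes, so the estimator reported no uncertainty from shared reads.

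**Figure D3:**
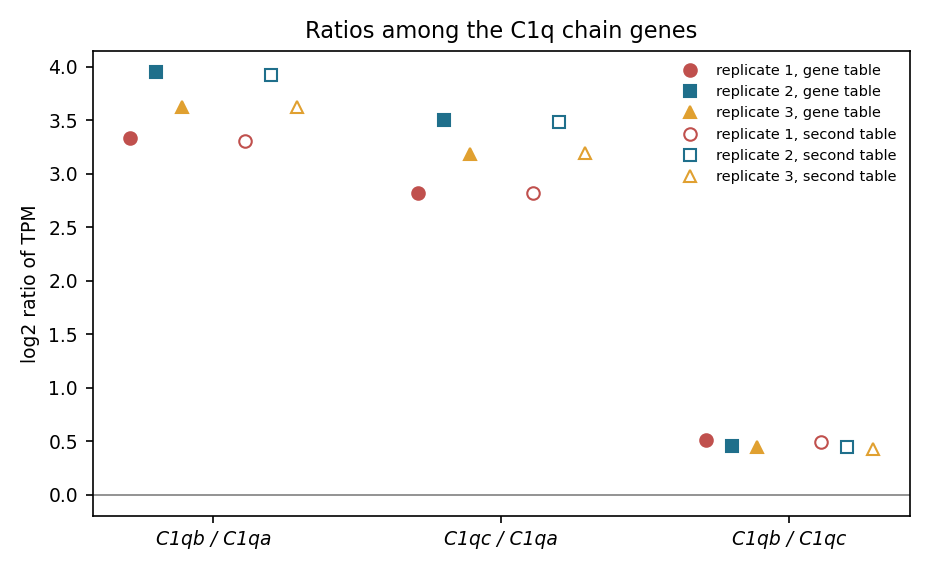
Log2 ratio of TPM between C1q chain genes in each library, filled symbols from the gene table and open symbols from the second transcript table. C1qb over C1qc lies between 0.42 and 0.51 in all symbols, while both ratios to C1qa are lowest in replicate 1 and highest in replicate 2.

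The same split is seen between libraries. C1qa had 2564, 3001 and 3356 expected counts, or 114, 55.1 and 97.4 CPM, a ratio of highest to lowest of 2.06. That ratio was reached by 68 of the 5163 genes averaging at least 1000 counts, whose median ratio was 1.18. C1qb had 1217, 906 and 1274 CPM and C1qc 967, 751 and 1061 CPM, ratios of 1.41 each. All 3 chains were lowest in replicate 2, C1qa by the most: 0.62 below its mean on the log2 scale, against 0.31 for C1qb and 0.29 for C1qc. The chi-square statistics with 2 degrees of freedom were 871 for C1qa, 3109 for C1qb and 2466 for C1qc. Without replicate 2 the ratio for C1qa fell to 1.17, so replicate 2 carries most of its difference. The macrophage marker sum, 14635 CPM, was also lowest in replicate 2. Lyz2 alone gave 11136, 9093 and 9451 CPM of the sums in replicates 1, 2 and 3. Replicate 2 was lowest for 8 of the 10 markers, whereas Cd68 and Mrc1 were lowest in replicate 1. What part the macrophage markers have in the C1q differences was not tested.

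In pattern over the 3 libraries, C1qb and C1qc were near neighbours and C1qa was not. By Euclidean distance between deviations, among 5094 other protein-coding genes averaging at least 1000 counts, C1qc was the 41st nearest gene to C1qb and C1qb the 49th nearest to C1qc. C1qb was only the 204th nearest gene to C1qa, and C1qc the 295th. The genes nearest to C1qa were H2-Eb1 (0.077 log2 units away), Siglec1 (0.088) and H2-Aa (0.104). H2-Eb1 and H2-Aa encode MHC class II chains and Siglec1 a sialic acid receptor of macrophages. C5ar1 was number 4 in this order, at 0.104, but this holds in CPM and not after length correction. In TPM rescaled to nuclear protein-coding genes C5ar1 was the 919th nearest gene to C1qa, and in the second transcript table on that scale the 412th. On those scales C1qc was the 63rd and the 41st nearest gene to C1qb. These distances rest on 3 libraries and carry no p.

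Among the component genes, Cfp was abundant, C3 was low and Cfb rested on few reads. Cfp (ENSMUSG00000001128.7, chromosome X, 20925454 to 20931555, minus strand) encodes properdin, which stabilises the enzyme that cleaves C3 in the alternative pathway. It had 142, 249 and 223 TPM, or 204 ± 55.8, and ranked 183. Its expected counts were 9199, 25870 and 20087. In CPM it had 408, 475 and 583, with a BCV of 15.8%, and it was the 1 member that was lowest in replicate 1. Its transcript Cfp-201 held 98.6%, 99.1% and 98.8% of the gene's TPM.

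C3 (ENSMUSG00000024164.15, chromosome 17, 57203970 to 57228136, minus strand), the component on which the pathways converge, had 5.22, 3.81 and 3.20 TPM, or 4.08 ± 1.04. Properdin RNA thus exceeded C3 RNA 27.2-fold, 65.3-fold and 69.7-fold in TPM in replicates 1, 2 and 3. C3 had 1194, 1127 and 899 expected counts, or 53.0, 20.7 and 26.1 CPM, and replicate 1 stood above both others. Its ratio of highest to lowest CPM, 2.56, was the largest of the 9 members in CPM (in TPM rescaled to nuclear protein-coding genes it was 2.11, and that of Cd55 was larger), and its BCV was 32.4% (chi-square 588). C3-201 held 100%, 78.5% and 88.1% of its TPM. In the second transcript table its share was again lowest in replicate 2, at 70.5%. In the first transcript table the rest was nearly all C3-202 (662 nt), with 0, 25.4 and 11.0 expected counts and posterior SDs of 5.64, 8.99 and 7.61. By counts C3-201 held 100%, 97.7% and 98.8%. With so few reads on C3-202, the TPM shares are not interpretable as a difference. The effective length of C3 was 4912, 3933 and 4391 bases, which enters its TPM and the ratios to Cfp. Replicate 1 is also the library in which stromal markers summed to 332 CPM, against 2.35 and 2.67. All 11 stromal markers tested were highest there, Col1a1 with 2375, 1 and 14 counts, and of the 12 on the list, those without a count numbered 0, 5 and 3 in the respective libraries. Their part in the C3 difference was not tested. Without replicate 1 the C3 ratio was 1.26, still past the test (chi-square against Poisson, adjusted p = 6.31e-07 with n = 2 libraries). Without replicate 1, 55.3% of all genes tested passed as well. C3 had 20.7 and 26.1 CPM in the libraries with stromal sums of 2.35 and 2.67 CPM.

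Cfb (ENSMUSG00000090231.10, chromosome 17, 34856374 to 34862518, minus strand), the protease precursor of the alternative pathway, had 0.45, 0.40 and 0.42 TPM, or 0.423 ± 0.0252. These levels rest on 37, 40 and 47 expected counts. In CPM the values were 1.64, 0.735 and 1.36, so the near-constant TPM and the CPM do not give the same picture of the libraries. In TPM rescaled to nuclear protein-coding genes Cfb had 2.02, 1.16 and 1.73, lowest in replicate 2 as in CPM. The effective length that TPM divides by was 1760, 1319 and 1736 bases. The chi-square test called Cfb (statistic 14.6, adjusted p = 0.00136 by Benjamini-Hochberg) but not without replicate 2 (adjusted p = 0.569). Its level also depends on the estimator: the second transcript table assigned it 85, 142 and 120 counts, 2.30, 3.55 and 2.55 times those of the gene table. For the other 8 members that factor lay between 1.04 and 1.22. C2 lies 85 bases from Cfb, and the annotated readthrough gene Gm20547, which had 0 counts, overlaps it by 6107 bases. Cfb is therefore reported as uncertain.

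Of the receptors for the released fragments, C3ar1 had similar levels in all 3 libraries, and for C5ar1 the difference between libraries depended on the scale. C3ar1 (ENSMUSG00000040552.8, chromosome 6, 122847138 to 122856161, minus strand), the receptor of C3a, had 172, 214 and 182 TPM, or 189 ± 22.3, and ranked 207. It had 32598, 65474 and 47619 expected counts, the most of any member in each library. Its CPM of 1447, 1203 and 1382 gave a ratio of 1.20 and the lowest BCV of the 9, 13.3%. The chi-square statistic was nevertheless 934, because counts this deep resolve small differences. Nearest in pattern were Ninj1, Smim7 and P2rx7, each within 0.009 log2 units.

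C5ar1 (ENSMUSG00000049130.6, chromosome 7, 16246743 to 16259540, minus strand), the receptor of C5a, had 90.5, 118 and 96.8 TPM, or 102 ± 14.3, and ranked 415. Expected counts were 9557, 11490 and 11638, or 424, 211 and 338 CPM. By TPM replicate 2 was the highest library and by CPM it was the lowest, at 0.56 below the mean on the log2 scale. The CPM ratio of highest to lowest was 2.01, reached by 77 of those 5163 genes, and it was 1.26 without replicate 2. Length-corrected values do not show a difference of that size: in TPM rescaled to nuclear protein-coding genes C5ar1 had 406, 343 and 399, a ratio of 1.18, and C3ar1 769, 624 and 749, a ratio of 1.23. In the second transcript table on the same scale C5ar1 had 462, 354 and 470, a ratio of 1.33. Replicate 2 was the lowest library for C5ar1 on all 3 scales, and the size of the difference varied between them. In CPM the genes nearest in pattern were Ehd1, Helz2 and Ifrd1, at 0.050, 0.059 and 0.066 log2 units, and C1qa was the 7th nearest.

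The transcripts to which the authors' estimators gave C5ar1 reads differed between libraries. C5ar1-201 (2481 nt, 3 exons) held 80.8%, 22.9% and 65.1% of the gene's TPM in replicates 1, 2 and 3. C5ar1-202 (2540 nt, 2 exons) held 19.2%, 24.1% and 13.0%. C5ar1-203 (674 nt) held 0%, 53.0% and 21.9%. The last shares exons 1 and 2 with C5ar1-201 and ends after 541 bases of the last exon. Its expected counts were 0, 2039 and 627, and so the effective length of the gene, which TPM divides by, was 2268, 1296 and 1880 bases. It was shortest in replicate 2, the library that TPM ranks highest and CPM lowest. In the second transcript table C5ar1-203 held 11.7%, 54.7% and 35.7%, again highest in replicate 2, but C5ar1-202 rather than C5ar1-201 was the larger of the long transcripts in every library. The estimators thus gave the short transcript its highest share in the same library and divided the long ones differently.

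**Figure D4:**
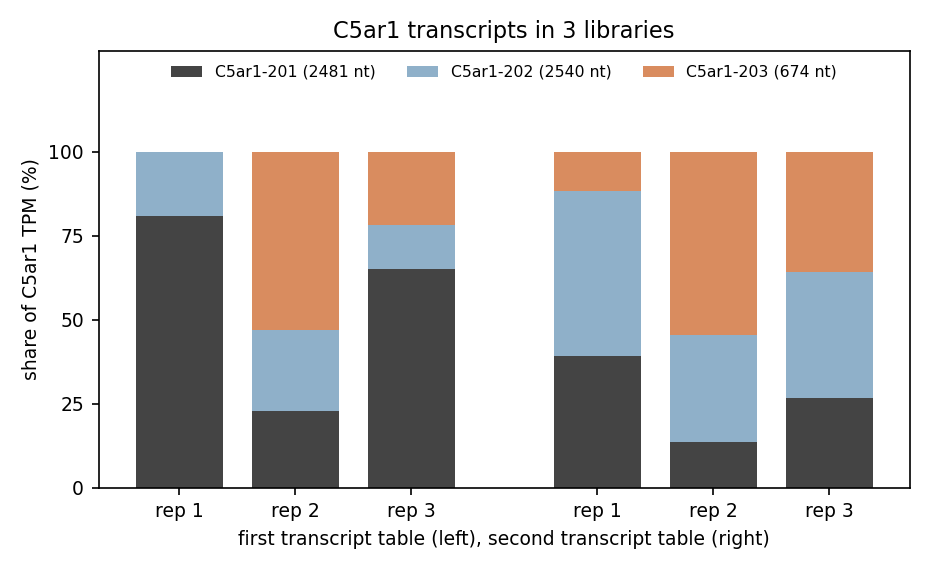
Share of C5ar1 TPM held by each annotated transcript (stacked bars, %) in 3 libraries, from the first transcript table on the left and the second on the right. The 674 nt transcript holds 0%, 53.0% and 21.9% on the left and 11.7%, 54.7% and 35.7% on the right.

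C5ar2, the other C5a receptor gene, lies 2588 bases from C5ar1 and was much lower, at 1.33 ± 0.131 TPM. C5ar1 exceeded it 71.3-fold, 95.1-fold and 65.4-fold in TPM. Counted without regard to length the excess was 50.6-fold, 38.7-fold and 38.3-fold.

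Cd55 (ENSMUSG00000026399.12, chromosome 1, 130439027 to 130462744, minus strand), also called decay-accelerating factor, was the lowest member. It had 0.37, 0.25 and 0.11 TPM, or 0.243 ± 0.130, from 26, 47 and 18 expected counts. Its CPM of 1.15, 0.864 and 0.522 gave a ratio of 2.21 (3.66 in TPM rescaled to nuclear protein-coding genes) and passed the test narrowly (chi-square 6.94, adjusted p = 0.0470 by Benjamini-Hochberg) and not without replicate 1 (0.111) or replicate 3 (0.324). The near-identical copy Cd55b, 16017 bases away, and the antisense gene Gm16083, which overlaps Cd55 by 169 bases, had 0 counts in every library. With so few reads, the shares of its transcripts (Cd55-201 at 53.7%, 60.7% and 76.9%) are not interpretable as a difference.

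The rest of the system was checked with lists of 55 complement genes by role, of which 46 are not members. Receptors were mostly present and plasma components mostly low or at 0 counts. Of the 10 receptor genes, 8 reached 1 TPM and 6 reached 10 TPM. Of the 10 classical pathway genes, only the C1q chains reached 1 TPM. The lectin, alternative, membrane regulator and soluble regulator lists had 1 of 8, 2 of 4, 2 of 8 and 1 of 8 genes at 1 TPM or more. The terminal pathway, which forms the membrane attack complex, had 0 of 7, and 5 of those had 0 counts in every library. These numbers of genes use TPM as deposited and depend on the scale. In TPM rescaled to nuclear protein-coding genes, C1ra (mean 3.16), Cfb (1.64) and C8g of the terminal pathway (1.11) also passed 1. In the second transcript table on that scale, C2 did too, at 2.44. A count of 0 allows up to 0.128, 0.0595 and 0.0838 CPM in replicates 1, 2 and 3.

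Among the 46 other genes, 10 reached 1 TPM and 5 reached 10 TPM, or 21.7% and 10.9%, below the 42.7% and 18.0% of nuclear protein-coding genes and near the 18.1% and 7.45% of all annotated genes. Itgb2, the shared beta chain of complement receptors 3 and 4, was highest at 105 ± 16.3 TPM. Cd93, first described as a C1q receptor, had 82.4 ± 16.5 TPM, and Itgam, the alpha chain of complement receptor 3, had 21.4 ± 2.53 TPM. C1qbp, a C1q-binding mitochondrial protein, had 24.8 ± 9.07 TPM. Cr1l, the mouse membrane regulator Crry, had 21.05 ± 6.41 TPM, far above Cd55, which also restrains the enzymes that cleave C3. The enzymes that act with C1q were low or undetected. C1ra had 0.827 ± 0.0651 TPM, or 3.16 when rescaled to nuclear protein-coding genes. C1s1 had 6, 0 and 2 counts, and C1rb had 0 counts in every library. The C1 inhibitor gene Serping1 had 5, 0 and 0 counts; it and C1s1 had most of their counts in replicate 1, where stromal markers were highest, and the part of stromal cells was not tested.

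**Figure D5:**
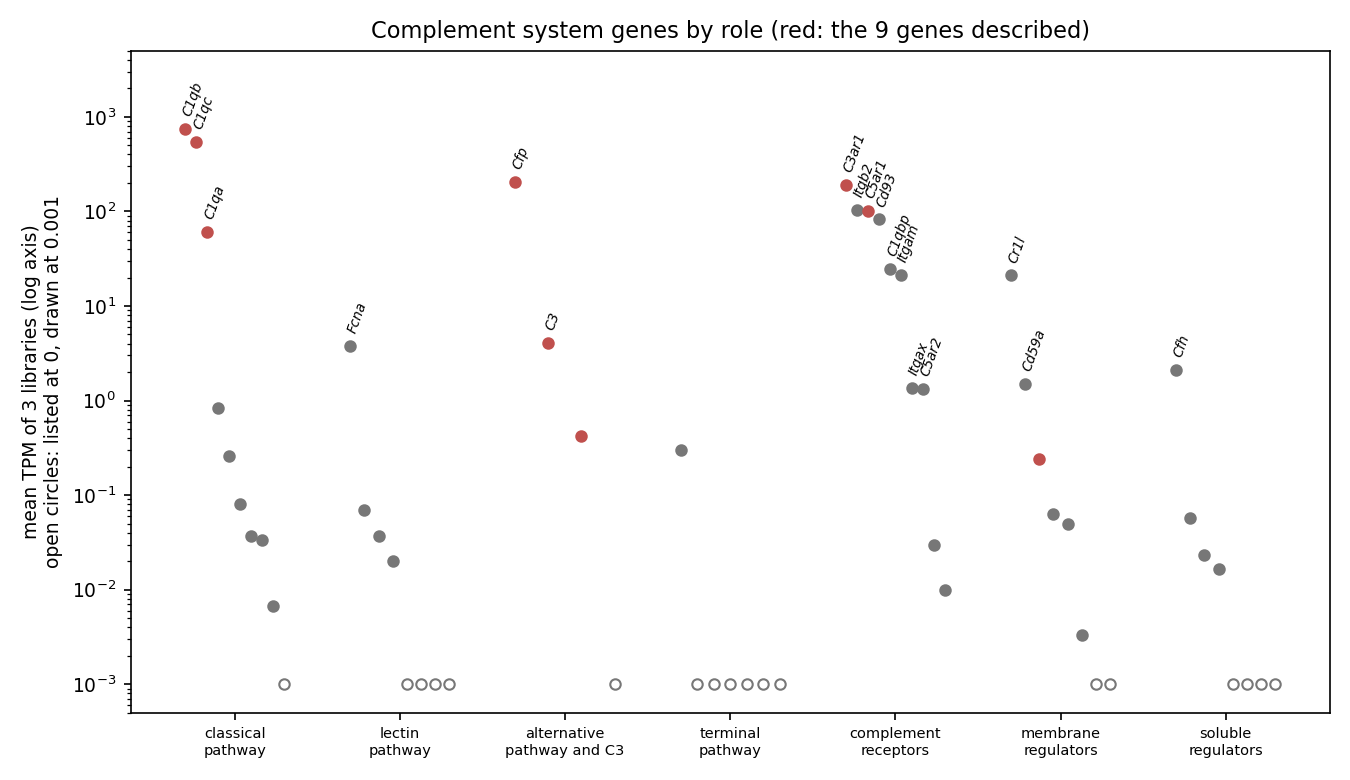
Mean TPM of 55 complement genes over 3 libraries (log axis), grouped by role; red symbols are the 9 genes described, grey the other genes, open symbols genes listed at 0. Names are given for genes at 1 TPM or more, and 8 of them are receptors.

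Of the 15 other genes deep enough for the between-library test, 12 were called, beside the 66.8% of all genes tested. The called genes with the largest BCV were Cd46 (57.6%), C4b (48.7%) and C1ra (28.4%). Cd46 and C4b stayed under 1 CPM in every library, so both are uncertain. C4b has a near-identical copy, C4a, but the deposited posterior SD of its count was only 0.79, 0.59 and 1.13.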

How the data were processed

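Total RNA of the cytosolic fraction, depleted of ribosomal RNA, was measured in 3 libraries of 1 group, starting from 1 µg and selecting fragments between 250 and 400 nt, per the labels. The authors deposited 3 tables per library: genes, transcripts in the same layout (first transcript table) and transcripts in another layout (second). The files use mm10 and GENCODE M21, per the deposited readme files, which trace the gene and first transcript tables to transcriptome alignments and the second to an index and the reads. The sources used here give no aligner, quantifier or strandedness, so reads of overlapping genes on opposite strands cannot be told apart. The authors' expected counts are estimated reads, not normalized; the deposited TPM divides them by effective length and scales each library to one total; the deposited percent column gives what part of a gene's TPM each transcript holds. Effective lengths and posterior SDs were used as deposited.

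Rows that match no annotated gene (0.181% of counts) were left out. Expected counts were rounded. TMM factors and tagwise dispersions, with an intercept as the whole design, came from edgeR 4.0.16 (R 4.3.3). Alternative size factors and dispersions came from DESeq2 1.42.0. Variation between libraries was tested for each gene with a mean count of 10 or more by a chi-square test against Poisson sampling, checked on simulated data, with Benjamini-Hochberg adjustment at 0.05 over 13237 genes. Deviations use log2 CPM with a prior count of 0.5. A count of 0 allows 3 counts, on library totals; this limit covers counting error only, since reads are not independent molecules. With 1 group, no differential expression was tested.

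The genes described, the lists and the tests were chosen with earlier results of these data known. Genes named beside the 9 are complement genes at 10 TPM or more, the 3 called ones with the largest dispersion, overlapping or near-identical genes, the 3 nearest in pattern to C1qa, C3ar1 and C5ar1, and markers that move with a member. C5ar2, C2, C1s1, C1rb and Serping1 were named after their values were seen. Alternatives were other scalings, filters and prior counts, DESeq2, the second transcript table and leaving out each library. Scripts ran in Python 3.11.15 with scipy 1.17.1, pandas 2.3.3, numpy 2.4.6 and, for figures, matplotlib 3.10.9. Promoter windows are from RefSeq.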

Additional observations from a re-analysis of the deposited data

How the results depend on the processing

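Under the alternatives tried, 29 of 30 values for the main results (ratios among the C1q genes, genes at 10 TPM or more, members and genes past the test) kept their direction and stayed within their spread or 1.5 times their count. The exception was the number of genes past the between-library test, 8842 with all libraries, which ranged from 4334 without replicate 2 to 7376 without replicate 1 when libraries were left out, and was 8815 with DESeq2 size factors, 9672 with library totals and 9985 with no filter beyond a mean count above 0; the cause was not tested beyond the loss of 1 library. The members called stayed at 8 or 9 of 9: Cd55 was lost without replicate 1, without replicate 3 and with no filter beyond a mean count above 0, and Cfb without replicate 2. Of all genes tested, 55.3%, 33.1% and 51.2% were called without replicates 1, 2 and 3, and 45.7% with that wider filter. The deviation of Cfp in replicate 2, -0.025, became 0.018 with library totals of nuclear protein-coding genes, so it has no stable sign. TPM levels depend on the scale: C1qb, 746 TPM as deposited, was 2844 relative to nuclear protein-coding genes and 298 in the second transcript table, or 2696 there on the protein-coding scale, an alternative added after seeing the data. On that last scale Cfb had 5.83 TPM against 1.64 in the gene table. DESeq2 gave a BCV of 48.7% for C3 and 31.8% for Cd55, against 32.4% and 46.3% by edgeR. The DESeq2 values were estimated from each gene alone, whereas those of edgeR are pulled toward genes with similar counts. Length-corrected scales, added after seeing the data, moved the ratio of highest to lowest library of C5ar1 from 2.01 to 1.18 (1.33 in the second table), of Cd55 from 2.21 to 3.66 and, in the second table, of Cfb from 2.23 to 1.42. The number of reads limits Cfb and Cd55. No paired analysis was possible because there is 1 group.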
